A study of Mus musculus with 8 samples.

Results

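The visceral endoderm is the extraembryonic epithelium that wraps the early mouse embryo. It feeds the embryo before the placenta works: receptors on its apical face take up maternal proteins, and the cells secrete plasma proteins that the liver makes later in life. Cubilin and amnionless form one of these receptors, in which amnionless anchors cubilin and brings it to the cell surface, and megalin, encoded by Lrp2, is a large member of the LDL receptor family that works beside them. The genes described here are 7 secreted carriers (Afp, Ttr, Rbp4, Trf, Apoa1, Apoa2 and Apob) and the 3 receptor genes (Cubn, Amn and Lrp2). They were taken by name: every non-control probe whose gene name in the scanner files is 1 of these 10 genes was used, which gave 14 probes of 55681 on the array and 10 genes of 36373 gene names.

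The arrays come from mouse embryonic stem cells (ESC) carrying a short hairpin RNA against Zrf1 (the KD group, 4 arrays) or a control hairpin (the Control group, 4 arrays). Both groups had gone through 6 days of neural induction towards neural progenitor cells (NPC) that the labels call RGC-like. Zrf1, named Dnajc2 in current annotation, encodes a ribosome-associated J-domain chaperone that also acts in chromatin. Each single-colour array measured 100 ng of total RNA from 1 sample, and the sources used here do not say how many hairpins, clones or separate cultures there were. The p-values therefore measure the spread between these samples, which may be technical. The deposited names of the KD arrays carry 2 numbers, each shared by a pair of arrays of which 1 is also marked TR. The arrays of such a pair differed by an SD of 0.38 and 0.41 in log2 signal over the tested probes. Over all KD pairs the range was 0.32 to 0.42. Each name pair spans 2 slides, and the lowest SD belongs to 2 arrays of 1 slide. These SDs therefore cannot tell whether a name pair shares its RNA. With the shared number as a random block the correlation was 0.22. The titles give 4 replicates, so the 4 were kept as 4 samples, with the pairs averaged as an alternative.

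Levels below are log2 signals after each array's 75th percentile was subtracted, so that 0 is that percentile, and levels of different probes are not compared. Well above background is the scanner software's own call. On every array 53.4 to 60.3% of 59305 spots were well above background and none was saturated. Probes that passed this call on each array of KD, of Control or of both were tested, which left 29090 probes, and a probe is called when its adjusted p (limma, Benjamini-Hochberg over those probes, two-sided) lay under 0.05. The targeted gene fell: the Dnajc2 probe A_52_P533198 averaged -2.32 ± 0.23 in KD and 1.87 ± 0.11 in Control (SD, n = 4 each), 18.3-fold lower (adjusted p = 1.38e-07). Folds of probes dim in 1 group depend on the background correction, so the folds of Dnajc2 and of members that move by over 1.5 times are also given as the range over 3 other sets of values: normexp correction with an offset of 50 units, scaled in 2 ways, and the authors' deposited table. For Dnajc2 that range was 11.1 to 11.2-fold lower. The change was broad, with 57.1% of tested probes called, 29% higher and 28.1% lower. Because RNA came from whole cultures, a different number of cells of a type and a different amount of RNA per cell cannot be told apart in any value below.

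Of the 14 member probes, 11 in 8 genes were tested, and 10 were called higher in KD, none lower and 1 neither (lower calls at an unadjusted p under 0.05 were also 0). Afp, Amn, Rbp4 and 1 probe of Cubn rose by over 4-fold in the main values and under every alternative in which they were tested, while Ttr, Lrp2, Apoa2 P2178553 and 1 of the Trf probes rose by less than 2.5-fold. Of the tested probes 5 were not well above background on every Control array and so entered the test through the KD arrays alone, a choice that favours probes higher in KD. The other 6 were well above background on all 8 arrays. Among these 6, 5 were called higher and 0 lower, whereas of all 25381 tested probes of that kind 28.1% were called higher and 29.3% lower. The members were chosen with earlier results of these data known, so the counts and shares are set side by side as a description only. Groups did not overlap for 10 of the 11 tested member probes, KD above Control in each. Of all tested probes 54.1% had groups that did not overlap, in either direction. The 10 include the 5 that entered the test through the KD arrays alone, which favours KD above Control. The count and the share are therefore not like for like. Of the 3 untested probes, 2 also had KD above Control, but on dim signals. Apoa1 was apart by 0.02 with no array well above background, and Apob P1957198 by 0.43 with 2 KD arrays. The share of 54.1% does not cover untested probes, so nothing is read from these 2.

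**Figure D1:**
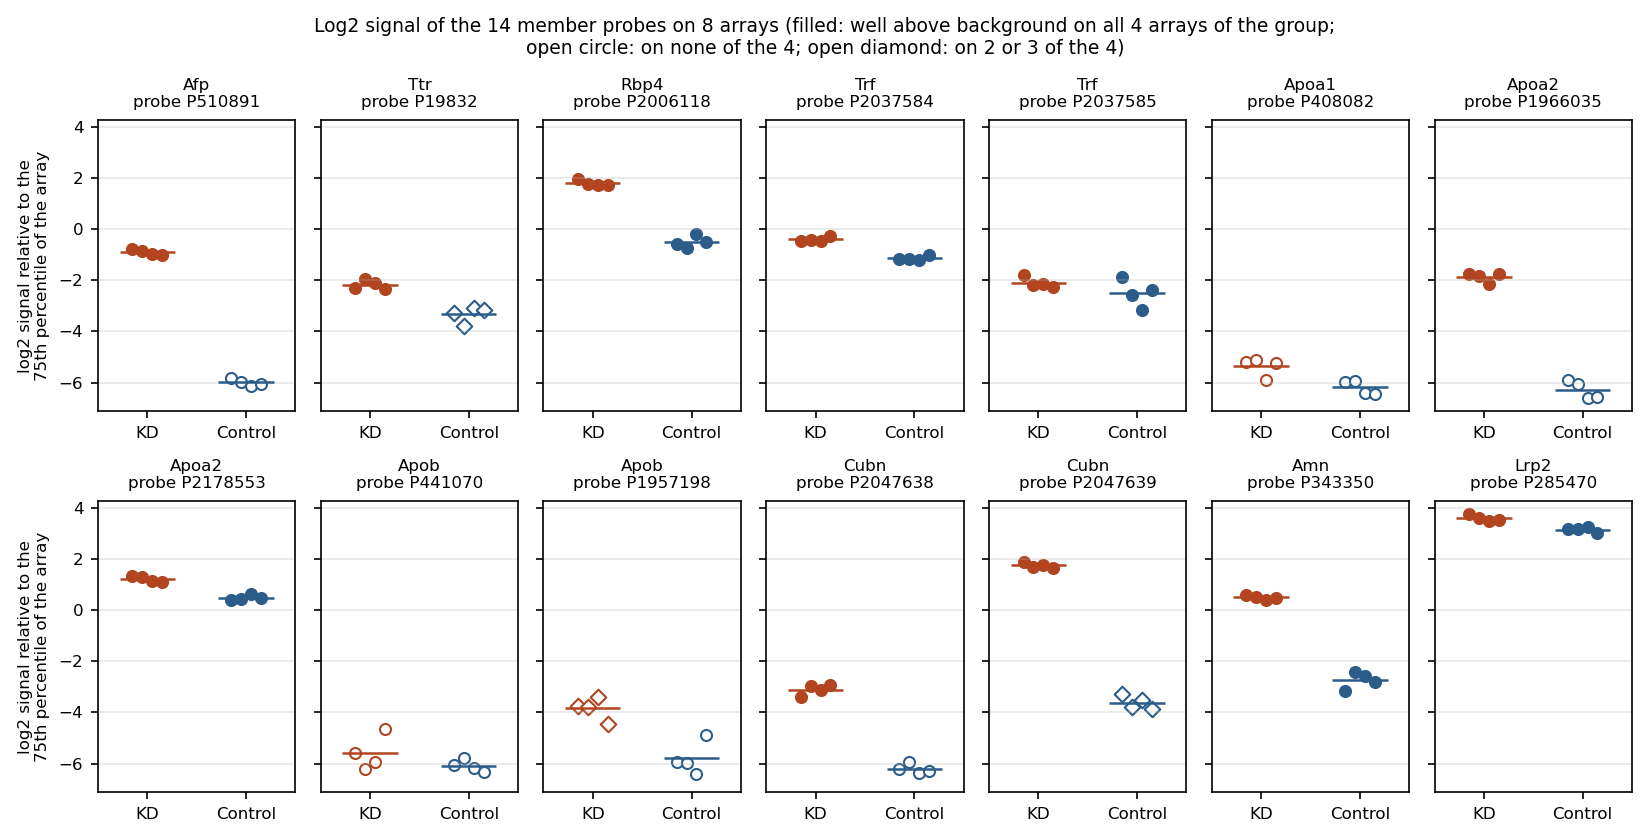
Log2 signal of each of the 14 member probes on the 4 KD and the 4 Control arrays, 1 panel a probe, with the mean of each group as a line; the vertical axis is relative to the 75th percentile of the array. Filled circles mark groups in which all 4 arrays were well above background, open circles none and open diamonds 2 or 3. KD points lie above all Control points in every panel except the Trf probe P2037585 and the Apob probe P441070.

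Among the receptors, cubilin stood out. Cubn has 2 probes on chromosome 2 of mouse build mm9, A_55_P2047639 at chr2:13197978-13198037 and A_55_P2047638 at chr2:13205609-13205668, both for the minus strand and 7571 bases apart. The letters of both are shown because they sample different stretches of the transcript. P2047638 is given whole, and of P2047639 the last 30 bases. Capitals mark AATAAA, the letters of the polyadenylation signal, a hexamer that 10.1% of the 55681 array probes hold somewhere in their 60 bases.
Cubn A_55_P2047638: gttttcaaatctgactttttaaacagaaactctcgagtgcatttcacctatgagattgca
Cubn A_55_P2047639: atacaaaagtcaaagtacgggtAATAAAca

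Signals of Cubn P2047639 were 1.89, 1.70, 1.78 and 1.65 in KD, against -3.29, -3.79, -3.53 and -3.85 in Control. All KD arrays lay more than 4 log2 units above the highest Control array. The difference was 5.37 ± 0.13 (SE), a 41.4-fold higher signal with a 95% interval of 33.6 to 51.0 (adjusted p = 7.67e-08), and 3 of the 4 Control arrays were well above background. In the other 3 sets of values, the authors' deposited table included, it was 16.2 to 16.6-fold. Cubn P2047638 had -3.40, -2.98, -3.12 and -2.94 in KD, against -6.23, -5.94, -6.37 and -6.28 in Control. None of the Control arrays was well above background for it, so the signal was at least 1.99-fold higher (adjusted p = 6.34e-07), and 1.84 to 2.06-fold in the other sets of values, the authors' deposited table included. An "at least" fold compares the KD mean with a floor for Control, which on each array is the lowest signal of any probe well above background, or the dim signal itself where that is larger. It is a bound for these values alone, not across background corrections. That bound is below the change of P2047639, so whether the Cubn probes changed by different amounts could not be read. P2047638 lists 1 Ensembl transcript and P2047639 lists 2, of which 1 is shared. In the RefSeq gene table a non-coding gene, Gm13270, overlaps Cubn, and another, Gm51960, overlaps Amn. Whether their transcripts reach these probes was not analysed here.

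Amnionless rose with cubilin. Its only probe, A_51_P343350 on chromosome 12 (chr12:112514095-112514243, plus strand, mm9), has 60 bases that cover 149 bases of genome and so crosses a splice junction of the annotated gene. Its letters are shown whole.
Amn A_51_P343350: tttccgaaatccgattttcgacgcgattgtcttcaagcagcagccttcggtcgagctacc

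Amn had signals of 0.60, 0.53, 0.39 and 0.47 in KD, against -3.16, -2.41, -2.57 and -2.80 in Control. All 8 arrays were well above background and the groups lay far apart. The difference of 3.23 ± 0.16 is a 9.39-fold higher signal, with an interval of 7.33 to 12 (adjusted p = 1.14e-06). In the other sets of values, the authors' deposited table included, it was 5.43 to 5.58-fold.

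Megalin moved least of the receptors. Lrp2 A_52_P285470 (chr2:69262566-69262625, minus strand) had 3.75, 3.61, 3.47 and 3.54 in KD, against 3.15, 3.15, 3.26 and 3.01 in Control. The groups did not overlap, and the lowest KD array lay 0.21 above the highest Control array. The fitted difference was 0.45 ± 0.09, 1.37-fold, with an interval of 1.19 to 1.57 (adjusted p = 2.15e-03). The call depended on the scaling: with each array scaled by its median the difference was 0.28 (adjusted p = 0.109), and on the 4 arrays of slide 2 alone it was 0.41 (adjusted p = 0.0848). The same median scaling moved the median change of all tested probes to -0.12, against 0.05 with the 75th percentile. Lrp2 is also known from neuroepithelium, and its Control arrays were all well above background.

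Alpha-fetoprotein rose among the secreted carriers. Afp is the main plasma protein of the visceral endoderm and fetal liver. The probe A_51_P510891 (chr5:90937781-90937840, plus strand), spotted 10 times on each array and averaged, had -0.76, -0.84, -0.97 and -1.0 in KD, against -5.81, -5.98, -6.13 and -6.04 in Control. The spread within each group was about 0.1 log2 units, and no Control array was well above background. The signal was at least 9.24-fold higher in KD (adjusted p = 3.34e-08). The other sets of values, the authors' deposited table included, gave 4.79 to 5.21-fold.

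Rbp4, the carrier of retinol in blood, rose 4.96-fold. Its probe A_55_P2006118 (chr19:38191120-38191179, minus strand) had 1.95, 1.78, 1.74 and 1.71 in KD, against -0.59, -0.75, -0.21 and -0.50 in Control. All arrays were well above background and no KD array came near the Control range. The difference was 2.31 ± 0.12 (adjusted p = 1.69e-06), with an interval of the fold from 4.09 to 6.01. The last 30 bases of the probe hold ATTAAA, a common variant of the polyadenylation signal that 3.95% of array probes contain.
Rbp4 A_55_P2006118: caaacttggtttATTAAAcatatagtcacc

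Ttr encodes transthyretin, which carries thyroid hormone and binds the retinol carrier. Its probe A_65_P19832 had -2.32, -1.95, -2.10 and -2.34 in KD, against -3.28, -3.78, -3.08 and -3.18 in Control. The highest Control array stayed 0.73 below the lowest KD array, and 3 of the 4 Control arrays were well above background. The difference of 1.15 ± 0.16 is a 2.22-fold higher signal, interval 1.71 to 2.89 (adjusted p = 4.36e-04). It was 1.44 to 1.59-fold in the other sets of values, the authors' deposited table included.

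Transferrin, the iron carrier encoded by Trf, was read by 2 probes that gave different calls. They lie on chromosome 9 on the minus strand, A_55_P2037584 at chr9:103111207-103111266 and A_55_P2037585 at chr9:103112826-103112885. The letters of P2037585 are whole, and those of P2037584 are its last 30 bases with AATAAA in capitals.
Trf A_55_P2037585: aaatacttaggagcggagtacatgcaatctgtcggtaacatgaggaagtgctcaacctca
Trf A_55_P2037584: gagcacaaAATAAAaacgactgctgacttt

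Trf P2037584 had -0.47, -0.41, -0.46 and -0.28 in KD, against -1.16, -1.16, -1.21 and -1.02 in Control. Its groups were tight and apart, with a difference of 0.74 ± 0.07, 1.66-fold (adjusted p = 5.22e-05). Trf P2037585 had -1.80, -2.19, -2.15 and -2.27 in KD, against -1.87, -2.59, -3.17 and -2.38 in Control. Here the groups overlapped, since the highest Control array exceeded 3 of the 4 KD arrays, and the difference of 0.40 had an interval of -0.19 to 0.99 (adjusted p = 0.223). Without Control replicate 1 it was 0.61 (adjusted p = 0.04). The changes of the Trf probes differed by 0.34, which an exact permutation test over the 8 arrays did not separate (two-sided p = 0.314, also after adjustment over the 2 probe pairs compared), so a difference between the probes was not shown, nor that they changed alike.

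The apolipoproteins, the protein part of lipoprotein particles, were split by signal. Apoa2, a main protein of high-density lipoprotein, has A_55_P1966035 at chr1:173156320-173156379 and A_55_P2178553 at chr1:173156445-173156504, plus strand, 65 bases apart. P1966035 is given whole, and of P2178553 the last 30 bases, with AATAAA, the letters of the polyadenylation signal, in capitals. Whether the transcript ends there was not analysed.
Apoa2 A_55_P1966035: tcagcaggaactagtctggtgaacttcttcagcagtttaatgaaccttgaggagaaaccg
Apoa2 A_55_P2178553: ttttctccAATAAAtgcggaaggagttaaa

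Apoa2 P1966035 had -1.74, -1.85, -2.14 and -1.74 in KD, against -5.90, -6.06, -6.61 and -6.57 in Control. No Control array was well above background, so the signal was at least 4.70-fold higher (adjusted p = 5.69e-07), but 3.03 to 3.32-fold in the other sets of values, the authors' deposited table included. Apoa2 P2178553 had 1.35, 1.28, 1.13 and 1.10 in KD, against 0.40, 0.42, 0.61 and 0.48 in Control. All 8 arrays passed the background call and the groups did not overlap, but the difference was 0.73 ± 0.08, 1.66-fold (adjusted p = 1.20e-04). In the other sets of values P2178553 was 1.60 to 1.67-fold higher, the authors' deposited table included. The probes were compared by an exact permutation test over the 8 arrays with the dim Control signals at their floor. With these floors the change of P1966035 was 2.83-fold larger than that of P2178553. The two-sided p was 0.0286, the smallest this test can give with 8 arrays. After adjustment over the 2 probe pairs compared, the p was 0.0572. This lies above 0.05, so a difference between these probes was not shown, nor that they changed alike. Each Apoa2 probe lists 3 Ensembl transcripts, 2 of them shared. In the RefSeq gene table Apoa2 overlaps the gene Tomm40l, and which transcripts of either the probes read was not analysed here.

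Apoa1, the other main protein of high-density lipoprotein, had no array on which it was well above background. Its probe A_51_P408082 (chr9:46037921-46037980) had -5.19, -5.10, -5.91 and -5.24 in KD, against -5.96, -5.93, -6.39 and -6.45 in Control, values at which no fold is given. Apob, the structural protein of very-low-density lipoprotein, has 2 probes on chromosome 12 that were not tested. A_52_P441070 (chr12:8023194-8023253) was well above background on no array. A_55_P1957198 (chr12:8012697-8012756) had -3.75, -3.80, -3.38 and -4.46 in KD, against -5.93, -5.97, -6.41 and -4.89 in Control. It was well above background on 2 KD arrays and no Control array, and its groups did not overlap.

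**Figure D2:**
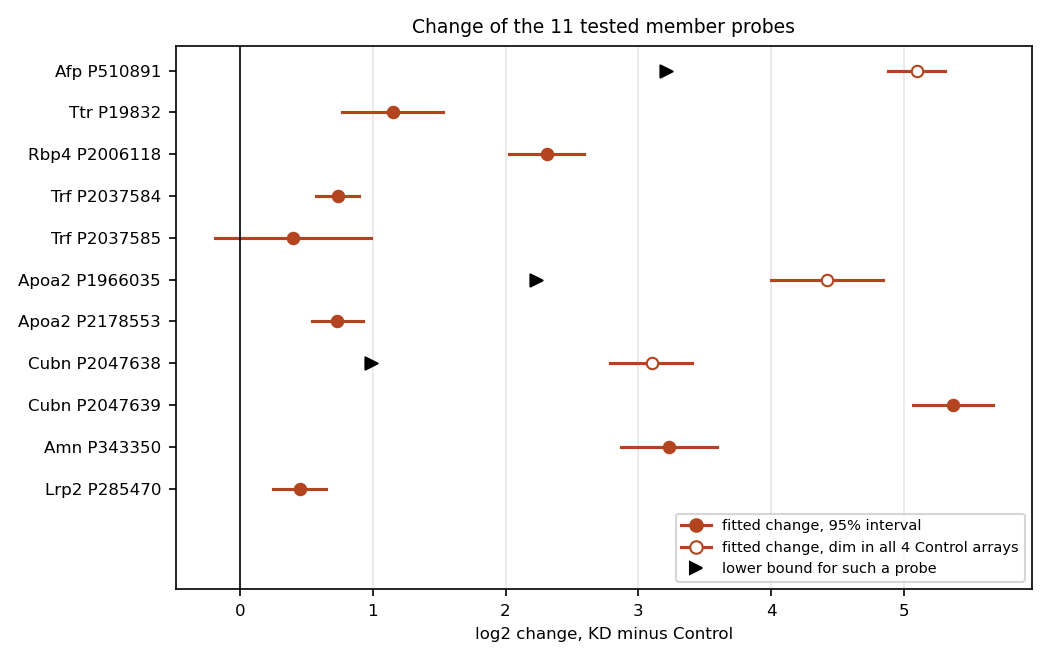
Fitted log2 change, KD minus Control, of the 11 tested member probes with 95% intervals; open points are probes not well above background on any Control array, and triangles give their lower bound. Changes range from 0.40 for Trf P2037585, whose interval includes 0, to 5.37 for Cubn P2047639.

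The 8 arrays lay on 3 slides, each with both groups. Within slides 1, 2 and 3, Cubn P2047639 differed by 5.68, 5.43 and 4.94, Amn by 3.01, 3.14 and 3.63, and Afp by 5.22, 5.18 and 4.81. Rbp4 differed by 2.71, 2.12 and 2.30, Ttr by 1.46, 1.11 and 0.94, and Lrp2 by 0.60, 0.41 and 0.39. Every called member probe was higher in KD on each slide. This follows from their groups not overlapping, so the direction within slides adds nothing to that result. The exception among tested probes was Trf P2037585, which was 0.79, 0.60 and -0.41.

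**Figure D3:**
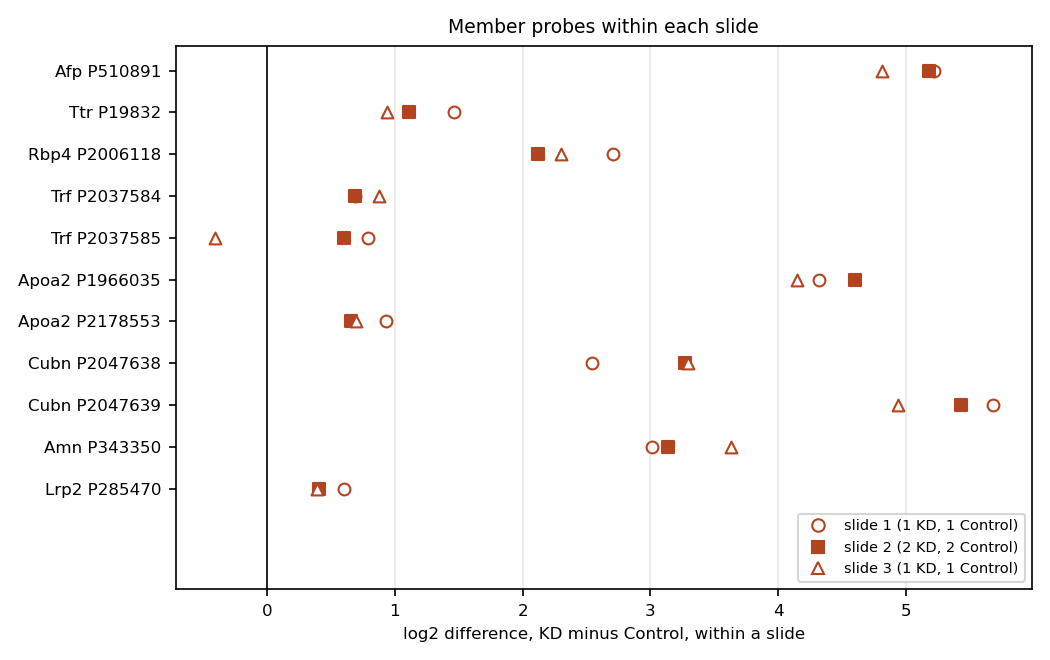
Log2 difference, KD minus Control, of the 11 tested member probes within slide 1 (1 array of each group), slide 2 (2 of each) and slide 3 (1 of each). All points lie to the right of 0 except Trf P2037585 on slide 3, at -0.41. For probes whose KD arrays all lie above the Control arrays, points can only lie to the right of 0.

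RefSeq promoter windows (build GRCm38.p6) were available for 8 of the 10 genes, 10 windows in all, and the 250 bases before each start were searched. The windows of Afp, Cubn and Amn are shown as a carrier and the 2 parts of 1 receptor. Capitals mark GTTAAT, a half-site of the HNF1 family of endoderm factors, and TATAAA, the letters of a TATA box.
Afp, chr5:90490464-90490713, plus strand: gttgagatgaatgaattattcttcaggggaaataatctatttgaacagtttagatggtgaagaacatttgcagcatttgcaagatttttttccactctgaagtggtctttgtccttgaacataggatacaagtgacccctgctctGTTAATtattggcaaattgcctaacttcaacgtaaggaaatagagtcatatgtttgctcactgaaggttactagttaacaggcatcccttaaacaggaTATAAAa
Cubn, chr2:13491877-13492126, minus strand: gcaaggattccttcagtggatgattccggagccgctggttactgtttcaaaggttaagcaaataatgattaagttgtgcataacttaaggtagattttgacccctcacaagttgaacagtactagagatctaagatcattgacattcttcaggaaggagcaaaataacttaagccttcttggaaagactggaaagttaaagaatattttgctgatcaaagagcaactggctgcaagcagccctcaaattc
Amn, chr12:111270846-111271095, plus strand: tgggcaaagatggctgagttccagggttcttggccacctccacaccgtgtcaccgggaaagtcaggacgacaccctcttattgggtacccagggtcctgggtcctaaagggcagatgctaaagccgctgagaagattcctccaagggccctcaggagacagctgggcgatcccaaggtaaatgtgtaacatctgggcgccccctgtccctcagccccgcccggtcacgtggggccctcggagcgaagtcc

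The 3 windows differ in base content, with 36.0% G and C and 1 CG pair in Afp, 39.6% and 2 in Cubn, and 61.2% and 11 in Amn. On either strand, GTTAAT was found in the window of Afp alone among the members and in 6.43% of all 32851 windows. CAAAGT, letters of the HNF4 motif, was found in the Lrp2 window and in 12.6% of all windows. AGATAA or TGATAA, forms of the GATA motif, was found in none of the 10 member windows and in 16.6% of all. Other forms of the GATA motif were not searched. TATAAA, searched on the gene's strand only, was found in windows of Afp, Apoa2, Apob and Rbp4 and in 7.59% of all. Counted from the annotated start, it lay at -7 to -2 in Afp and -28 to -23 in Rbp4. In Apob it lay at -60 to -55 and in Apoa2 at -212 to -207. Whether any of them acts as a TATA box was not tested. None of these matches overlapped another, and they describe letters only.

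Lists of genes that work with the members, or mark cells that also make them, were described by counts over genes, each by its brightest tested probe, with folds from the main values alone. For reading these counts, 57.6% of the 21749 tested genes were called, 29.1% higher and 28.5% lower, with a median change of 0.04. The lists too were chosen with earlier results of these data known, so their counts are a description only. As for the members, a gene that entered the test through KD alone is favoured among higher calls, and through Control alone among lower ones. Counting only probes well above background on all 8 arrays, 48 genes over all lists were higher and 33 lower, against 59 and 38. Other visceral endoderm plasma proteins followed the carriers in part. Of 13 tested, 8 rose and 3 fell, with a median of 1.30. With only probes well above background on all 8 arrays, 4 rose and 1 fell. Apoe, the apolipoprotein of remnant particles, was 3.69-fold higher (7.12 ± 0.13 in KD, 5.24 ± 0.08 in Control) and its neighbour Apoc1 2.49-fold higher. The copper carrier ceruloplasmin, Cp, was 13.7-fold lower (-3.83 ± 0.34 in KD, where 2 arrays were well above background, and -0.06 ± 0.16 in Control), and the adhesive protein vitronectin, Vtn, was at least 1.36-fold lower. Alb, Apoa4, Apoh, Serpind1 and Gc were not well above background on any array. The linear signals of all 21 genes summed to 165 to 201 times the 75th percentile in KD and 57.6 to 62.3 times in Control. Such sums weigh bright probes most: Apoe made up 76.5 to 77.9% of this one in KD and 61.4 to 64.6% in Control, and without it the sums were 38.1 to 44.9 in KD and 21.8 to 22.6 in Control.

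Genes for assembling lipoproteins were mixed. Of 11 tested, 6 rose, 1 fell and 4 were not called, with a median of 0.34. Mttp, which loads lipid onto the Apob protein, was 5.45-fold higher (0.01 ± 0.10 in KD, -2.43 ± 0.24 in Control), Soat2, which esterifies cholesterol, 1.84-fold, Dgat2, which makes triglyceride, 1.45-fold and the cholesterol exporter Abca1 1.74-fold. Leaving out 1 array at a time gave 0 to 2 lower calls. With each array scaled by its median, 4 rose and 2 fell. With only probes well above background on all 8 arrays, 5 rose and 2 fell.

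The machinery downstream of the receptors rose in more cases than it fell. Of 12 tested adaptors, chaperones and lysosomal enzymes, 7 rose and 3 fell, with a median of 0.48. Dab2, the clathrin adaptor of megalin and cubilin, was 2.58-fold higher (0.70 ± 0.06 in KD, -0.67 ± 0.09 in Control), the lysosomal protease Lgmn 3.25-fold and the recycling GTPase Rab11a 2.38-fold. Lrpap1, the chaperone that escorts megalin, was 2.07-fold higher by its brighter tested probe, and its other tested probe was not called. The neonatal Fc receptor Fcgrt, which recycles albumin, was 3.65-fold lower (-1.78 ± 0.19 in KD, 0.09 ± 0.12 in Control).

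Other receptors of the LDL receptor family and of the carriers went the other way. Of 15 tested, 2 rose, 10 fell and 3 were not called, with a median of -0.39. The transferrin receptors parted: Tfr2 was 3.01-fold higher (-0.59 ± 0.19 in KD, -2.18 ± 0.20 in Control) and Tfrc 3.06-fold lower (0.44 ± 0.14 in KD, 2.05 ± 0.20 in Control). Lrp12 was 2.41-fold lower. Lrp8, the reelin receptor, was 3.59-fold lower by its brighter probe, while its other probe was called higher.

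Transcription factors of the visceral endoderm rose in 9 of 14 tested cases and fell in 2, with a median of 0.71. Gata6 was 8.84-fold higher (1.25 ± 0.07 in KD, -1.89 ± 0.18 in Control) and Gata4 7.21-fold (-0.88 ± 0.10 in KD, -3.73 ± 0.10 in Control, 3 of 4 Control arrays well above background). Both are zinc-finger factors that specify primitive endoderm. Hnf4a, a nuclear receptor that acts on apolipoprotein genes, was 3.89-fold higher. Nr5a2, shared with pluripotent cells, was 4.97-fold lower. Scaled by the median, or with only probes well above background on all 8 arrays, 7 rose and 2 fell. Other visceral endoderm markers were mixed, with 5 of 9 higher and 1 lower: Spink1 was 17.5-fold higher (2.28 ± 0.06 in KD, -1.85 ± 0.22 in Control), Bmp2 3.82-fold and Dkk1 2.08-fold, while Lefty1 was 4.20-fold lower and Cer1 passed the background call on no array. Lefty1 and Cer1 mark the anterior visceral endoderm, but so do Dkk1 and the factor Hhex (1.81-fold higher), so its markers did not move together.

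**Figure D4:**
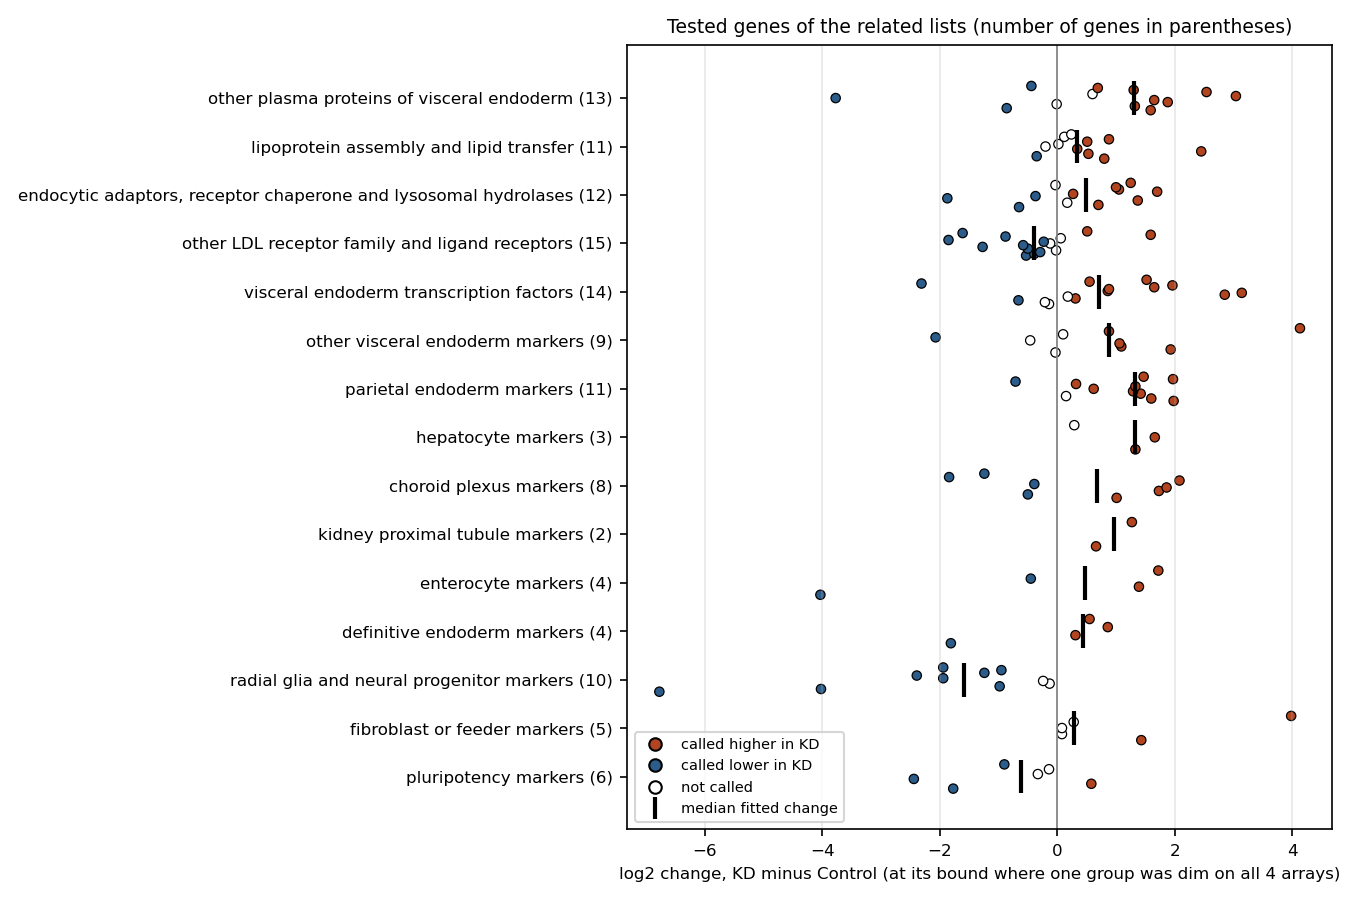
Log2 change, KD minus Control, of each tested gene in 15 lists, 1 row a list, with the median fitted change as a bar; genes dim on all arrays of a group stand at their bound. Points of the radial glia list lie at or left of -0.13, and those of most endoderm lists lie mainly to the right of 0.

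Markers of other cells that the cultures could hold moved as well. Of 11 tested parietal endoderm genes, which build the thick basement membrane of the yolk sac, 9 rose and 1 fell, with a median of 1.33: Col4a1 was 3.95-fold, Snai1 3.91-fold, Col4a2 3.02-fold and Sparc 2.77-fold higher, while Thbd passed the background call on no array. Their summed signal was 365 to 405 in KD and 145 to 156 in Control, of which Sparc made up 71 to 73.8% in KD and 65.8 to 69.6% in Control. Sparc was read by its brighter tested probe, and its other tested probe was not called. Among hepatocyte genes, Tdo2, Cps1, Cyp7a1, Hamp and Otc were well above background on no array, and 2 of the 3 tested, Asgr1 and Fbp1, were 2.51-fold and 3.15-fold higher. Fbp1 was well above background on 1 Control array, and with only probes above it on all 8 arrays 1 gene was called higher. The hepatocyte sum was 1.32 to 1.42 in KD and 0.694 to 0.847 in Control. Asgr1 made up 53.1 to 62.1% of it in KD and 36.4 to 47.2% in Control. Without Asgr1 the sums were 0.5 to 0.666 in KD and 0.407 to 0.499 in Control, mostly from dim probes. Ttr is also made by the choroid plexus, where 4 of 8 tested markers rose and 4 fell. With only probes well above background on all 8 arrays, 2 of these markers rose and 4 fell. Clic6 was 3.32-fold and Enpp2 3.64-fold higher, Lmx1a 3.59-fold and Slc4a5 2.37-fold lower, Kl and Kcne2 were well above background on no array, and the sums overlapped at 11.6 to 13.2 in KD and 11.9 to 12.9 in Control.

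Cubn, Amn and Lrp2 also serve the kidney tubule and the gut. Of 6 proximal tubule markers the 2 tested, Slc5a2 and Miox, were 2.41-fold and 1.59-fold higher, and the sums overlapped, 0.533 to 0.763 in KD and 0.387 to 0.689 in Control. Of 4 tested enterocyte markers Vil1 was 3.29-fold higher and Fabp1 2.61-fold (adjusted p = 0.0457, a call lost with some arrays left out), Cdx2 16.3-fold and Lgals4 1.37-fold lower, and Cdh17 and Sis were well above background on no array. The enterocyte sum was 1.55 to 1.80 in KD and 2.86 to 3.42 in Control. Lgals4 made up 64.7 to 68.6% of it in KD and 47.6 to 50.3% in Control. Without Lgals4 the sums were 0.486 to 0.596 in KD and 1.5 to 1.73 in Control. With only probes well above background on all 8 arrays, 1 proximal tubule marker was called higher. Of enterocyte markers 0 were then called higher and 1 lower. In the definitive endoderm list, Hhex, Sox17 and Foxa2 were 1.81-fold, 1.46-fold and 1.24-fold higher. Sox17 and Foxa2 were read by their brighter tested probes, and the other tested probe of each was not called. Hhex, Sox17 and Foxa2 were also counted among the visceral endoderm transcription factors above. Cxcr4 was 3.51-fold lower, and Gsc and Mixl1 were well above background on no array. Scaled by the median, 1 gene of the definitive endoderm list was called higher. The definitive endoderm sum was 2.55 to 2.84 in KD and 1.78 to 2.43 in Control.

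The labelled cell type was checked against its own markers. Of 10 tested radial glia and neural progenitor genes, 8 fell by their brighter tested probe and none rose, with a median of -1.59. Pax6, not called by that probe (-0.24, adjusted p = 0.101), has another tested probe that was 1.36-fold higher (adjusted p = 0.0466). Fabp7 was at least 109-fold lower (-5.15 ± 0.94 in KD, on no array well above background, and 2.82 ± 0.08 in Control), Hes5 16.2-fold, Sox1 5.24-fold and Slc1a3 3.84-fold. The sum was 31.4 to 32.7 in KD and 112 to 125 in Control. Of 6 pluripotency genes 3 fell, Nanog 5.44-fold, Esrrb 3.42-fold and Zfp42 1.87-fold, and Klf4 was 1.5-fold higher. Nanog was read by its brighter tested probe, and its other tested probe was not called. The pluripotency sums were 22.4 to 24.4 in KD and 56.8 to 61.7 in Control. Of 5 tested fibroblast or feeder genes Thy1 was 15.8-fold and Col1a1 2.69-fold higher and 3 were not called. Lum and Postn were well above background on no array. The fibroblast sums were 6.91 to 7.62 in KD and 3.79 to 3.89 in Control. Col1a2, which was not called, made up 37.4 to 38.2% of this sum in KD and 65.9 to 68.8% in Control. The part of these other cell types in the member values was not tested.

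By Euclidean distance between log2 profiles over the 8 arrays, each centred on its own mean, the tested probes most like Cubn P2047639 belonged to Ddit3 (0.422), Srgn (0.55) and Afp (0.562). Those most like Afp belonged to Fer1l4 (0.541), Ddit3 (0.545) and Cubn (0.562). Afp and Fer1l4 were not well above background on any of the 4 Control arrays, so distances that involve them rest on dim signals and no order is read from them. Ddit3, a transcription factor of the stress response, had 4.67, 4.54, 4.62 and 4.69 in KD, against -0.68, -0.74, -0.85 and -0.90 in Control. Srgn, which encodes the proteoglycan serglycin, had 2.87, 2.66, 2.47 and 2.57 in KD, against -2.56, -3.03, -2.75 and -2.52 in Control. Ddit3 and Srgn were well above background on all 8 arrays with groups far apart, and the likeness is chiefly that of a similar step between the groups.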

How the data were processed

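RNA of 8 samples was hybridised to Agilent mouse arrays of design 028005 with 60-base probes. Per the file headers, the deposited intensity values were made with Feature Extraction 10.7.3.1, which corrected background within each array; the deposited flags for background, saturation and outlier spots were used as given. The log2 values in the authors' deposited table served as an alternative. The p-values are this re-analysis's own. From the processed intensity, outlier spots were dropped, spots of a probe averaged, log2 taken and each array's 75th percentile subtracted. KD was compared with Control by limma 3.58.1 in R 4.3.3 (lmFit, eBayes) over 29090 probes, and the procedure was tested on simulated data. Probe names were updated by accession (26300 probes), symbol (2044) or synonym (355), and 26982 kept the file's name.

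Probe positions are on mm9, per the file headers; promoter letters come from RefSeq, GRCm38.p6. Exon and UTR annotation was not analysed here. The members and lists were chosen with earlier results of these data known. Named were all member probes, Dnajc2, up to 4 called genes of each list with the smallest p, genes of cell-type lists above background on no array, and the 3 nearest profiles of Afp and Cubn. Lrpap1 and Hnf4a were named after their values were seen. Some genes that this rule takes are not reported here. Alternatives covered scaling, background correction, filters, slide, replicate numbers and left-out arrays. The array number, 8, limits precision. Same-numbered KD and Control replicates did not deviate together (correlations -0.19 to 0.11), so numbers were not treated as pairs.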

Additional observations from a re-analysis of the deposited data

Results flagged for a closer look

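On the Apoa1 probe A_51_P408082, KD replicate 3 had a log2 signal of -5.91, away from the other KD arrays at -5.24 to -5.10, and none of these was well above background. Of 28 groups of 4 arrays checked this way, 1 stood out, where chance picks about 1 in 20.

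The untested Apob probe A_55_P1957198 reached a log2 signal of -3.38 in KD, well above background on 2 KD arrays and on none of the Control arrays.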

How the results depend on the processing

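Across 23 alternative settings the number of member probes called higher lay between 5 and 12, was 10 in 17 of them, and no member probe was called lower in any. Counting only probes well above background on all 8 arrays gave 5, since fewer probes were tested, and testing every probe gave 12. Scaling by the median of each array gave 9, 1 probe a gene 8, and slide 2 alone, an alternative chosen after seeing the data, 9. Leaving out 1 array at a time gave 10 to 11 member probes, 15535 to 16527 probes called in all (7904 to 8272 higher, 7607 to 8255 lower) and a Dnajc2 change of -4.28 to -4.13.

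With median scaling 5604 probes were called higher over all probes, 37.7% of calls against 50.8%, and Lrp2 lost its call; the cause was not tested. Lrp2 at 0.28 and, on slide 2 alone, 0.41 were the only called member changes to lose the threshold. No member change reversed under a setting with a test. In the authors' deposited log2 values the changes of Afp (2.28), Apoa2 P1966035 (1.61), Cubn P2047638 (0.89), Cubn P2047639 (4.02), Amn (2.44), Ttr (0.53) and Dnajc2 (-3.49) were smaller by over 1.5 times in fold and still called; both normexp settings kept these calls too. With the replicate number as a block 15015 probes were called, 7639 higher and 7376 lower, and 10 member probes. Averaging the KD arrays in pairs by their shared number, or leaving out those marked TR, also left 10. Probes dim in Control limit the folds of Afp, Apoa2 P1966035 and Cubn P2047638 to bounds, and their p-values use dim signals as they stand.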
